A study of Rattus norvegicus with 14 samples.

Results

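The baseline DNA methylation of unoperated rat oesophagus was described from the 4 libraries of non-surgical controls (NSC). Members were the CpG cytosines of chromosomes 1 to 20 with at least 10 reads in all 4 NSC libraries, and 327126 cytosines met that rule. They are 4.59% of the 7123083 autosomal cytosines listed in at least 1 NSC library and come from a series in which 12026708 were listed in any of 13 libraries. The level of a cytosine is the percentage of its reads that were methylated. The tissue was full-thickness oesophagus of male rats 8 to 9 weeks old that had no surgery, graft or other treatment, and the labels name no strain. The series also holds 2 operated groups repaired with silk fibroin grafts, which were not compared here. The labels do not say that the libraries came from separate animals, so the spread between them may be partly technical.

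In mammals, methyl groups are added mainly to cytosines followed by guanine (CpG), and maintenance enzymes copy the pattern to the new strand when DNA is replicated. Most CpG in a mammalian genome is methylated, whereas CpG-dense stretches known as CpG islands, many of them at gene starts, are usually free of methylation. In reduced representation bisulfite sequencing (RRBS) the enzyme MspI cuts the DNA at CCGG, short fragments are kept, and bisulfite turns unmethylated cytosine into a base read as thymine. CpG-rich DNA is therefore over-represented, and the levels below describe the part of the genome that was read, not the whole genome. Full-thickness oesophagus holds squamous epithelium, muscle, connective tissue, vessels, nerves and blood cells. An intermediate level in such tissue can come from a mixture of cells, of alleles or of molecules, and these cannot be told apart here. Regions are given in mRatBN7.2 positions. No gene annotation of that assembly was used here, so no gene is named and the tissue was not checked against marker genes.

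The libraries differed in depth. Reads summed over listed autosomal cytosines were 47558937 in replicate 1, 38653532 in replicate 2, 31028474 in replicate 3 and 25168010 in replicate 4. At the measured cytosines the median depth was 23 reads in replicates 1 and 2, 22 in replicate 3 and 18 in replicate 4. A single cytosine is therefore read with coarse precision, and the values that follow are averages over many cytosines unless a region is named. Intervals and limits from read numbers cover counting error only, since no molecular identifiers were described.

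Methylation levels fell into 2 main groups, cytosines with almost no methylation and cytosines with high methylation. Mean methylation was 53.6% in replicate 1, 53.9% in replicate 2, 54.0% in replicate 3 and 54.1% in replicate 4, or 53.9% ± 0.20 (SD, n = 4). The libraries thus spanned less than a percentage point. Levels below 10% were found at 29.0% ± 0.10 (SD, n = 4) of cytosines and levels of 90% or more at 28.1% ± 1.00 (SD, n = 4). The class at 70 to below 90% held 19.8% ± 0.91 (SD, n = 4), that at 30 to below 70% held 17.7% ± 0.17 (SD, n = 4), and the class at 10 to below 30% held only 5.43% ± 0.036 (SD, n = 4). The median cytosine was at 66.7% in every library and the lower quartile at 0%.

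**Figure D1:**
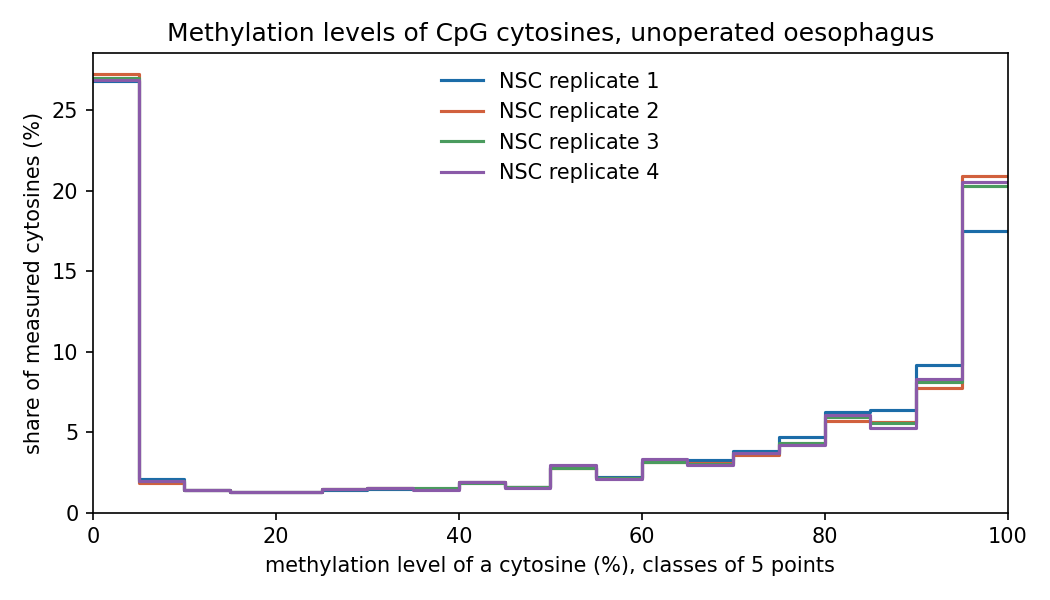
Share of measured cytosines (vertical axis, %) in classes of 5 percentage points of methylation (horizontal axis, %) for each of the 4 NSC libraries. All 4 lines peak at both ends, and replicate 1 lies below the others in the highest class.

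The unmethylated end was more uniform between libraries than the methylated end. No methylated read was seen at 25.7% ± 0.28 (SD, n = 4) of cytosines, with 25.4% in replicate 1 as the lowest value and 26.03% in replicate 2 as the highest. Every read was methylated at 15.4% ± 2.19 (SD, n = 4), and here replicate 1, the deepest library, was lowest at 12.2% while the others ran from 16.0% to 17.1%. At the measured cytosines the median depth was 23 reads in both replicates 1 and 2, and replicate 2 was at 16.4%. Why replicate 1 was lower was not tested. A cytosine read more often has more chances to show an unmethylated read, so the share was also taken at equal depth. With 10 reads drawn at each cytosine the share rose to 22.8% ± 1.35 (SD, n = 4), and replicate 1, at 20.8%, still lay below the others at 23.2% to 23.8%. The share without a methylated read was 27.7% ± 0.21 (SD, n = 4) in that draw.

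A large set of cytosines had no methylated read in any library. There were 64530 of them, 19.7% of those measured, with a median of 80 reads over the 4 libraries. A count of 0 in 80 reads allows a level of up to 3.75%. Of these cytosines 70.1% lay in 1 kb tiles with at least 40 listed cytosines, against 23.2% of all measured cytosines. The opposite set, with every read methylated in all 4 libraries, held 8892 cytosines (2.72%), and 7.93% of them lay in such CpG-dense tiles.

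The lowest and highest classes recurred from library to library more often than those between. Of cytosines below 10% in a given library, 92.0% on average (91.3% to 92.5% over ordered pairs of libraries) were below 10% in another. For the class at 90% or more the average was 67.3% (64.7% to 69.8%), and for 30 to below 70% it was 50.3% (48.9% to 52.4%). At 70 to below 90% it was 40.1% (38.8% to 43.1%). Only 31.3% (29.96% to 33.1%) of cytosines at 10 to below 30% were in that class again. The classes differ in width, in size and in counting error, and the part of these in recurrence was not tested. Exchange between the ends was rare, with 0.101% of cytosines below 10% found at 90% or more in another library. Below 10% in all 4 libraries were 80457 cytosines, and at 90% or more in all 4 were 37235.

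Cytosines that were read more deeply were more methylated. The 36827 cytosines with a mean of 10 to below 15 reads averaged 49.5% ± 0.24 (SD, n = 4), and 32.9% of them were below 10%. Those with 20 to below 30 reads averaged 53.3% ± 0.20 (SD, n = 4). The 7283 cytosines with a mean of 100 reads or more averaged 67.9% ± 0.10 (SD, n = 4), and 12.2% were below 10%. These 2.23% of cytosines carried 16.5% of the reads, and a mean over pooled reads was accordingly higher, at 57.2% ± 1.39 (SD, n = 4). CpG density moved with depth: the median number of listed cytosines per tile was 22 in the shallowest of these classes and 13 in the deepest. Its part in the relation was not tested.

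CpG density set apart tiles of very different methylation. The genome was cut into 1 kb tiles, density was taken as the number of CpG cytosines on either strand that were listed in any NSC library, and the 42766 tiles with at least 3 measured cytosines were kept. They hold 238140 cytosines, 72.8% of those measured. Density counted this way rises with the depth of reading as well as with the number of CpG in the DNA. The 7071 sparsest tiles, with 3 to 9 listed cytosines, averaged 74.7% ± 0.26 (SD, n = 4). They were only 1.47% of the listed tiles of that density. The share kept was 61.3% at 80 to below 120 and 71.6% at 120 and over. Values for sparse tiles thus describe a small part of sparse DNA, and the effect of this selection on the trend was not tested. Tiles with 10 to 19 averaged 70.5% ± 0.18 (SD, n = 4) and those with 20 to 39 averaged 58.2% ± 0.25 (SD, n = 4). The 6038 tiles with 40 to 79 averaged 20.95% ± 0.24 (SD, n = 4). At 80 to below 120 listed cytosines the mean was 4.07% ± 0.11 (SD, n = 4), and at 120 and over, in 174 tiles, it was 3.45% ± 0.28 (SD, n = 4). Every library gave this order of classes. The last step was small, from 4.04% to 3.78% in replicate 2 and from 4.01% to 3.19% in replicate 3.

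The contrast between the ends of the density scale was the same size in each library. Sparse tiles were at 74.4%, 74.8%, 74.9% and 74.9% in replicates 1 to 4, and tiles with at least 80 listed cytosines were at 3.90%, 4.00%, 3.90% and 4.15%. The difference was 70.7 points ± 0.21 (SD, n = 4), more than the spread between libraries, and sparse tiles were higher in 4 of 4 libraries. An exact two-sided permutation test over the 4 libraries gave p = 0.13, the smallest this number of libraries allows, so it cannot pass 0.05.

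The fall with density was a change in the share of unmethylated tiles more than a gradual drop of every tile. Below 10% were 3.13% of the sparsest tiles, 6.66% of those with 10 to 19 listed cytosines, 20.6% of those with 20 to 39, 69.1% of those with 40 to 79 and 92.1% of those with 80 to below 120. The mean fell under 50% at 35 to 39 listed cytosines, where it was 44.9%. At that density 37.9% of tiles were below 10% and 40.1% were at 70% or more, so few tiles had the mean level. At 45 to 49 cytosines the median tile was at 1.93% while the mean was 26.8%. Across tiles, which are not independent replicates, density and level had a Spearman rho of -0.42 in each library.

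**Figure D2:**
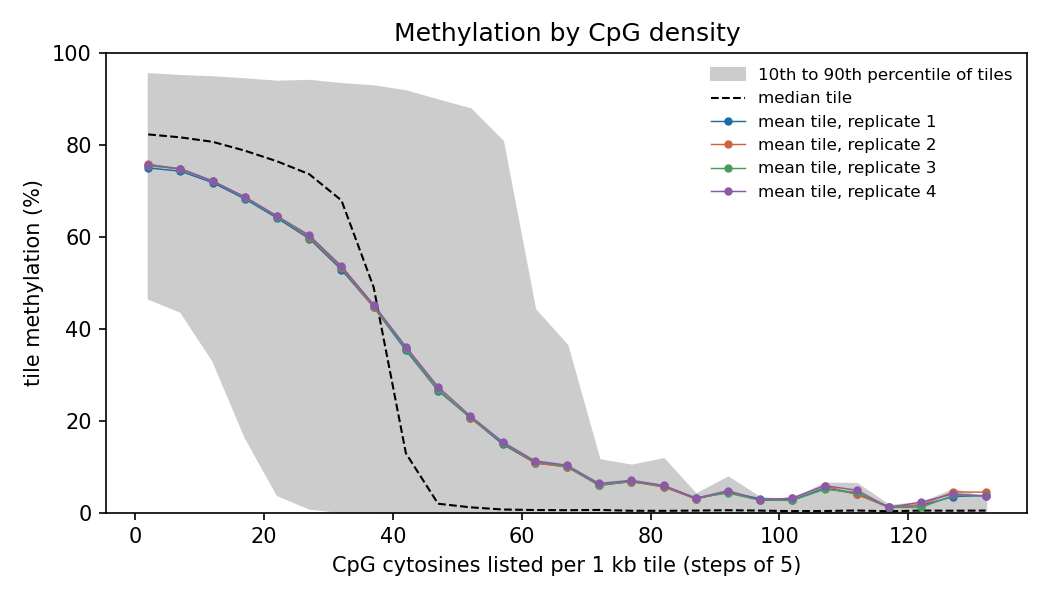
Methylation of 1 kb tiles (vertical axis, %) against the number of CpG cytosines listed per tile (horizontal axis, steps of 5). Points are the mean tile of each NSC library, the dashed line is the median tile and the grey band runs from the 10th to the 90th percentile of tiles. The 4 libraries lie on each other, and the median drops more steeply than the mean.

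Exceptions to the trend existed at both ends. Among the 1319 densest tiles, with at least 80 listed cytosines, 24 were at 70% or more, 13 of them at 90% or more. Among the 7071 sparsest tiles 221 were below 10%. Within a tile the measured cytosines were alike in dense DNA, where the median SD among cytosines of a tile was 0.931 points at 80 to below 120 listed cytosines, and less alike in sparse DNA, with 8.80 points at 3 to 9. The median depth per cytosine was 20.6 reads in the former and 27.5 in the latter. The median tile was at 0.401% in the former and 81.7% in the latter, and levels so near 0% leave cytosines little room to differ. The part of density in this likeness was not tested.

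There were 8566 tiles below 10% in all 4 libraries, and they formed 7167 runs of adjoining tiles, 5924 of them (82.7%) a single tile. A run ends where the next tile had fewer than 3 measured cytosines as well as where it was not below 10%, so lengths are lower bounds and do not show how long unmethylated stretches are. The longest run found covered 6 tiles on chromosome 18 at 57832001 to 57838000, where 72 cytosines averaged 2.45%, 3.74%, 1.62% and 3.25% in replicates 1 to 4. The next were 5 tiles on chromosome 2 at 179106001 to 179111000, with 83 cytosines at 0.930% ± 0.60 (SD, n = 4), and 5 tiles on chromosome 5 at 62359001 to 62364000, with 41 cytosines at 0.748% ± 0.51 (SD, n = 4).

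Among tiles below 10% in every library, 2 of the 3 with the most measured cytosines were read almost free of methylation. The tile on chromosome 12 at 32061001 to 32062000 had 64 measured cytosines, and its level was 0.242%, 0.324%, 0% and 0.0504% in replicates 1 to 4. Reads summed over these cytosines were 936 to 1197 per library, with a read counted at every cytosine it spans. The number of molecules is therefore smaller, and none of the cytosines reached 20 reads in every library. The tile on chromosome 16 at 18665001 to 18666000, with 54 cytosines, was at 0.226%, 0.146%, 0.0463% and 0%. The tile on chromosome 4 at 1789001 to 1790000, with 60 cytosines, was at 3.91%, 6.68%, 7.36% and 4.56%, and its single cytosines ran from 0% to 30.6%. That tile lay above the other 2 in every library.

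Tiles at 90% or more in every library were fewer than those below 10% in every library. By mean level the counts were closer, with 8761 tiles at 90% or more and 9374 below 10%. At 90% or more in all 4 libraries were 4248 tiles, and the one with the most measured cytosines lay on chromosome 4 at 2854001 to 2855000. Its 47 cytosines averaged 96.0%, 94.0%, 95.2% and 95.7% in replicates 1 to 4, and the tile listed 74 cytosines, a density at which most tiles were unmethylated. A tile on chromosome 1 at 2363001 to 2364000, with 27 measured and 75 listed cytosines, was at 92.7%, 93.6%, 93.5% and 93.4%. It held a cytosine at 6.67% beside others at up to 100%. A tile on chromosome 1 at 14894001 to 14895000, with 24 cytosines, was at 95.3%, 97.2%, 95.2% and 96.3%.

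Tiles at 40 to 60% in every library were rare, whereas tiles with an intermediate mean were not. Of the 42766 tiles, 634 lay at 40 to 60% in all 4, and 8427 had a mean of 30 to below 70%. The range of 40 to 60% is narrow beside the SD between libraries of tiles at 30 to below 70%, 10.6 and 10.4 points. How far that spread lowers the count was not tested. The tile on chromosome 1 at 48008001 to 48009000, with 26 cytosines, was at 48.6%, 55.8%, 40.1% and 47.2% in replicates 1 to 4, and its single cytosines ran from 24.9% to 66.9%. The tile on chromosome 18 at 29575001 to 29576000, with 25 cytosines, was at 49.1%, 47.6%, 40.7% and 53.5%. Only 3 of its cytosines, between 29575793 and 29575838, reached 20 reads in every library, and their mean was 76.1%. They lie at 1 end of the measured stretch, so depth and position cannot be told apart there.

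Another tile of this kind held no intermediate cytosines except 1. The tile on chromosome 5 at 136822001 to 136823000 had 25 measured cytosines between 136822835 and 136822955 and stood at 49.0%, 47.3%, 48.5% and 50.4%. Its cytosines were not at about 49% but near 0% or near 100%. From 136822843 to 136822869 low and high cytosines were mixed over a few bases. Those from 136822873 to 136822905 were all low, and those from 136822939 to 136822955 were all high. The cytosine at 136822843 was at 100%, 100%, 92.0% and 100% in replicates 1 to 4, that at 136822845 was at 0% in all 4, and that at 136822847 was at 100%, 92.9%, 100% and 100%. Reads at these positions numbered 15, 28, 25 and 19. Neither the genome sequence nor the reads were examined here, so whether each of these positions is a CpG in these rats was not tested. Of the 25 cytosines, 12 had a mean below 10%, 12 had a mean of 90% or more and 1, at 136822839, lay between. All 4 libraries showed this pattern. Such neighbours were otherwise uncommon: next neighbours within 10 bp that were below 10% and at 90% or more in all 4 libraries occurred 44 times, in 40 tiles, and this tile held 4 of them. That count was made after the tile had been seen.

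Neighbouring cytosines had similar levels over distances of up to about 1000 bp. Pearson's r was computed over all pairs of measured cytosines in each distance class within each library, and is given as a description, since pairs share reads, fragments and regions. From 200 bp on, the upper end of a class belongs to it and the lower end does not. It was 0.95 ± 0.0036 (SD, n = 4) at 2 to 10 bp, 0.94 ± 0.0039 (SD, n = 4) at 11 to 25 bp and 0.91 ± 0.0040 (SD, n = 4) at 51 to 100 bp. At 200 to 500 bp it was 0.85 ± 0.0063 (SD, n = 4), and at 500 to 1000 bp 0.73 ± 0.0039 (SD, n = 4). It then fell to 0.50 ± 0.0085 (SD, n = 4) at 1000 to 2000 bp, 0.29 ± 0.0042 (SD, n = 4) at 2000 to 5000 bp and 0.10 ± 0.0019 (SD, n = 4) at 10000 to 20000 bp. At 20000 to 50000 bp r was 0.071 and at 50000 to 100000 bp 0.077, so it stopped falling without reaching 0. The steepest part of the curve lay between about 500 and 5000 bp in every library.

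The same values were computed without shared reads. With the partner taken from another library, so that no read was shared, r was 0.93 at 2 to 10 bp, 0.90 at 51 to 100 bp and 0.73 at 500 to 1000 bp. The value in the same library was higher than that in another library by 0.014 at 2 to 10 bp, the widest gap of any class, and the values differed by at most 0.0012 above 200 bp. The same cytosine read in different libraries had a mean r of 0.92, but over all measured cytosines, a set of another makeup. By mean level 28.3% of all measured cytosines were below 10%, against 60.3% in pairs at 2 to 10 bp. These values therefore do not show whether a neighbour matches as well as the cytosine itself. The files give no strand. Pairs at 1 bp, taken to be mostly the strands of the same CpG, had r = 0.92 ± 0.011 (SD, n = 4) over 11362 pairs. That is below the value at 2 to 10 bp, but the sets differ in makeup: 33.1% of cytosines in pairs at 1 bp were below 10%, against 60.3% at 2 to 10 bp.

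**Figure D3:**
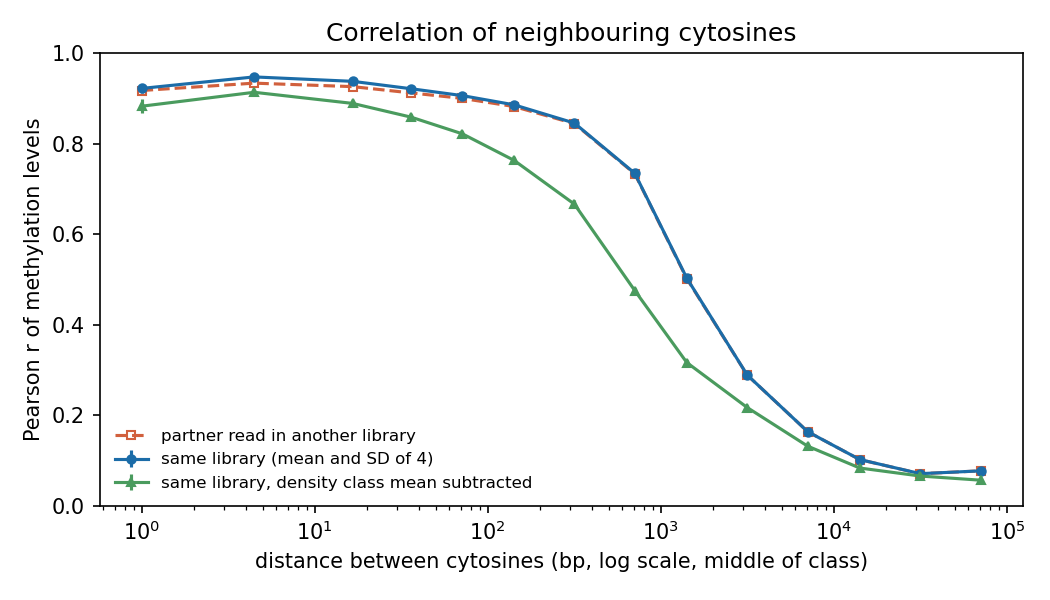
Pearson r of methylation levels (vertical axis) against the distance between the cytosines of a pair (horizontal axis, bp, log scale). Circles are the mean and SD of the 4 NSC libraries, squares take the partner from another library and triangles have the mean of the density class subtracted. Circles and squares nearly coincide, and all curves fall most between about 100 and 5000 bp.

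Part of the likeness at longer distances went with CpG density. After the mean of its density class was subtracted from every level, r was 0.91 ± 0.0055 (SD, n = 4) at 2 to 10 bp, 0.67 ± 0.0084 (SD, n = 4) at 200 to 500 bp and 0.48 ± 0.0056 (SD, n = 4) at 500 to 1000 bp. Pairs within a density class differed widely. At 11 to 25 bp r was 0.70 in tiles with 3 to 9 listed cytosines and 0.95 in tiles with 40 to 79. At 500 to 1000 bp it was 0.11 in the former and 0.78 in the latter. The class at 40 to 79 mixes unmethylated and methylated tiles, which widens the range of levels that r is computed over. Expressed in points, the mean absolute difference of a pair was 4.56 at 2 to 10 bp, 13.9 at 500 to 1000 bp and 40.4 at 50000 to 100000 bp. Of unmethylated cytosines (below 10%), 97.9% of partners at 2 to 10 bp were also below 10%, 86.7% at 500 to 1000 bp and 49.95% at 2000 to 5000 bp. At 50000 to 100000 bp the share was 36.1%, against 30.1% of all cytosines in those pairs.

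Levels were also averaged over larger windows, a step chosen after the neighbour values had been seen. There were 944 windows of 1 Mb with at least 10 tiles of fewer than 20 listed cytosines. The mean level of these tiles ran from 56.6% at the 5th percentile of windows to 82.9% at the 95th, with a median of 72.0%. Over windows, the libraries correlated with r from 0.93 to 0.95, and the median SD between libraries was 1.78 points against an SD of 8.15 points between windows. The libraries were read at the same tiles, so this r shows that the window means recur and not that neighbouring windows are alike, which was not tested. The lowest window lay on chromosome 7 at 134000001 to 135000000, with 31.5%, 32.4%, 29.5% and 33.9% in replicates 1 to 4 over 15 tiles. The highest lay on chromosome 9 at 59000001 to 60000000, with 88.9%, 91.8%, 91.0% and 87.5% over 10 tiles. These windows were picked for their level, so their values are a description.

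Chromosome means spanned 10.8 points. Chromosome 10 was lowest, with 47.9%, 48.4%, 48.4% and 48.5% in replicates 1 to 4, and chromosome 15 was highest, with 58.9%, 59.2%, 59.3% and 59.2%. Chromosome 13 followed chromosome 15 closely, at 59.1% each, and these neighbours did not differ beyond their spread. The share of cytosines in tiles with at least 40 listed cytosines was 26.4% on chromosome 10 and 18.0% on chromosome 15. Over the 20 chromosomes this share and the mean had r = -0.85, as a description. Over cytosines in tiles with fewer than 20 listed cytosines, chromosome means ran only from 68.5% (chromosome 10) to 74.4% (chromosome 15), a span of 5.93 points. Between libraries the order of chromosomes was nearly fixed, with r of at least 0.997 over 20 chromosomes for each of 6 pairs.

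The libraries agreed closely over the whole range, and r was lower over cytosines picked for an intermediate mean. Over all cytosines Pearson's r was 0.91 to 0.92 for the 6 pairs and Spearman's rho 0.86 to 0.87, as descriptions without a test. The mean absolute difference of a cytosine was 9.80 to 10.5 points, 63.4% to 64.8% of cytosines were within 10 points and 81.6% to 83.6% within 20 points. In tiles r was 0.96, the mean absolute difference 6.52 to 6.97 points, and 92.7% to 93.9% were within 20 points. Over the 98277 cytosines with a mean of 20 to 80%, r was 0.36 to 0.43. The r over all cytosines includes the separation of unmethylated from methylated cytosines, and the r over this range does not. The mean was taken over the same 4 libraries, so the choice itself narrows the levels and lowers r. How well intermediate cytosines agree cannot be read from that value. The 3 pairs that include replicate 1, the deepest library, had the highest r (0.92 each) and the 3 others had 0.91. With 10 reads drawn at each cytosine in every library those 3 pairs were still highest, at 0.891 to 0.893, against 0.884 to 0.887 for the others.

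The spread between libraries was larger than counting error at every level. For each cytosine the variance between libraries was set against the variance that binomial sampling of its reads gives. Over all cytosines the SD between libraries was 11.6 points (root mean square) and the counting SD 6.75 points, a variance ratio of 2.94. Single pairs of libraries gave ratios of 2.65 to 3.27, so no pair agreed within counting error. To keep the class and the spread apart, cytosines were classed on a pair of libraries and the spread was taken from the other pair. The ratio then varied little with level: 3.10 and 3.38 for cytosines below 10%, 2.96 and 2.98 at 30 to below 70%, and 2.82 and 2.87 at 90% or more. In points the spread was widest in the middle, where the SD was 17.5 and 16.6 points at 30 to below 70%, against 4.83 and 4.71 points below 10%. The ratio was 2.98 at a mean depth of 10 to below 15 reads, 2.94 at 30 to below 50 reads and 4.27 at 100 reads or more. What makes up the excess over counting error was not tested.

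**Figure D4:**
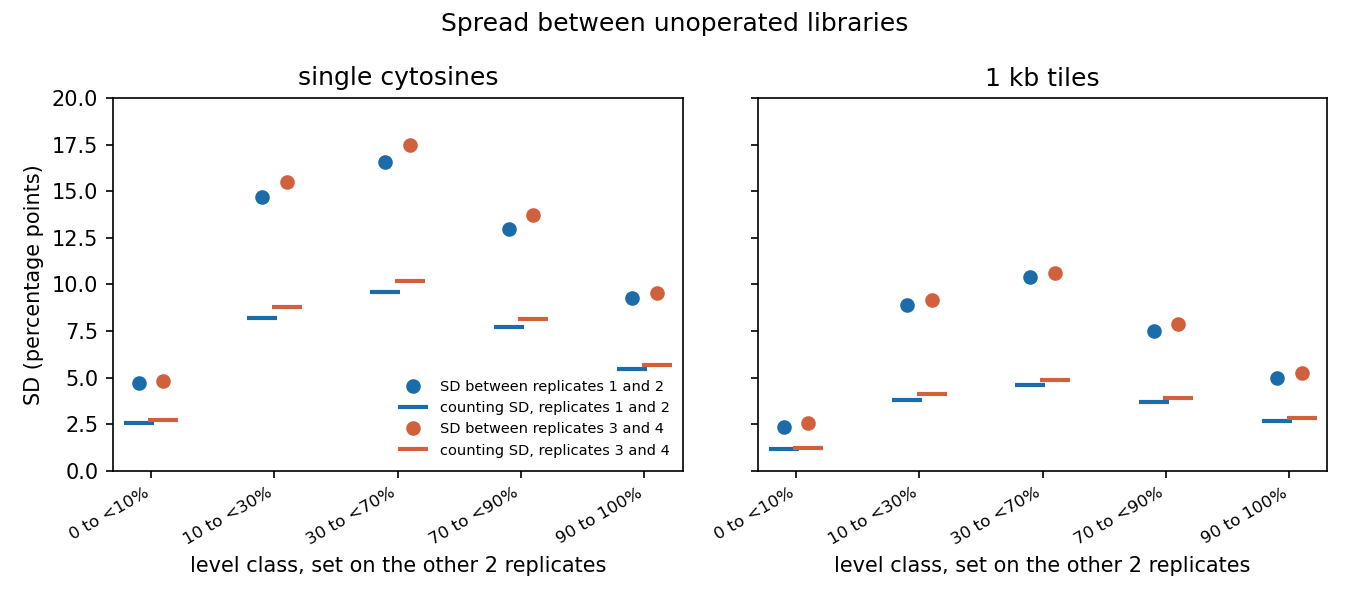
SD between NSC libraries (dots, percentage points) and the SD that binomial counting of reads gives (bars) by level class, for single cytosines on the left and 1 kb tiles on the right. Each class was set on the other pair of libraries, and every dot lies above its bar.

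Tiles showed the same order. Their SD between libraries had a median of 4.53 points over the 4 libraries, and 19.5% of tiles spanned more than 20 points. With classes set on the other pair, the SD was 2.57 and 2.37 points in tiles below 10% and 10.6 and 10.4 points in tiles at 30 to below 70%. The variance ratio was 4.42 over all tiles. Reads that span more than 1 cytosine enter the count at every one of them, so the counting SD of a tile is too small and its ratio too large. By density, the SD was 7.78 and 7.46 points in the sparsest tiles and 2.23 and 2.46 points at 80 to below 120 listed cytosines. In the 174 tiles with 120 or more it was 3.76 and 2.91 points, so it did not fall further. The variance ratio was not lower in dense tiles. It was 3.83 and 4.02 in the sparsest tiles, 4.43 and 5.37 at 80 to below 120, and 13.7 and 8.29 at 120 or more. Most dense tiles were also below 10%, a level at which the SD was small, and the part of density was not tested.

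A few tiles with many cytosines differed widely between libraries. Among the 4634 tiles with at least 10 measured cytosines the median range over the 4 libraries was 1.70 points and the 99th percentile 27.5 points. The widest was a tile on chromosome 4 at 4014001 to 4015000, with 69.3%, 35.5%, 86.0% and 89.6% in replicates 1 to 4 over 11 cytosines. Replicate 2 was the lowest library at each of the 11 cytosines. These lie between 4014858 and 4014946 with nearly the same read numbers throughout, so they are not separate observations. At the first of them the reads were 36, 27, 10 and 13 in replicates 1 to 4, so this tile also rests on few molecules. The next, on chromosome 14 at 86590001 to 86591000, had 41.0%, 77.3%, 67.0% and 23.6% over 16 cytosines. In replicate 1 the first of these, at 86590439, was covered by 17 reads at 41.2%, and the cytosine at 86590499, covered by 17 reads, was at the same 41.2%. The tile thus rests on few molecules, with 12 reads at its first cytosine in replicate 4. The next after it lay on chromosome 4 at 63687001 to 63688000, with 49.0%, 37.8%, 11.6% and 63.9% over 17 cytosines. These tiles were picked for their range, so their values are a description.

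**Figure D5:**
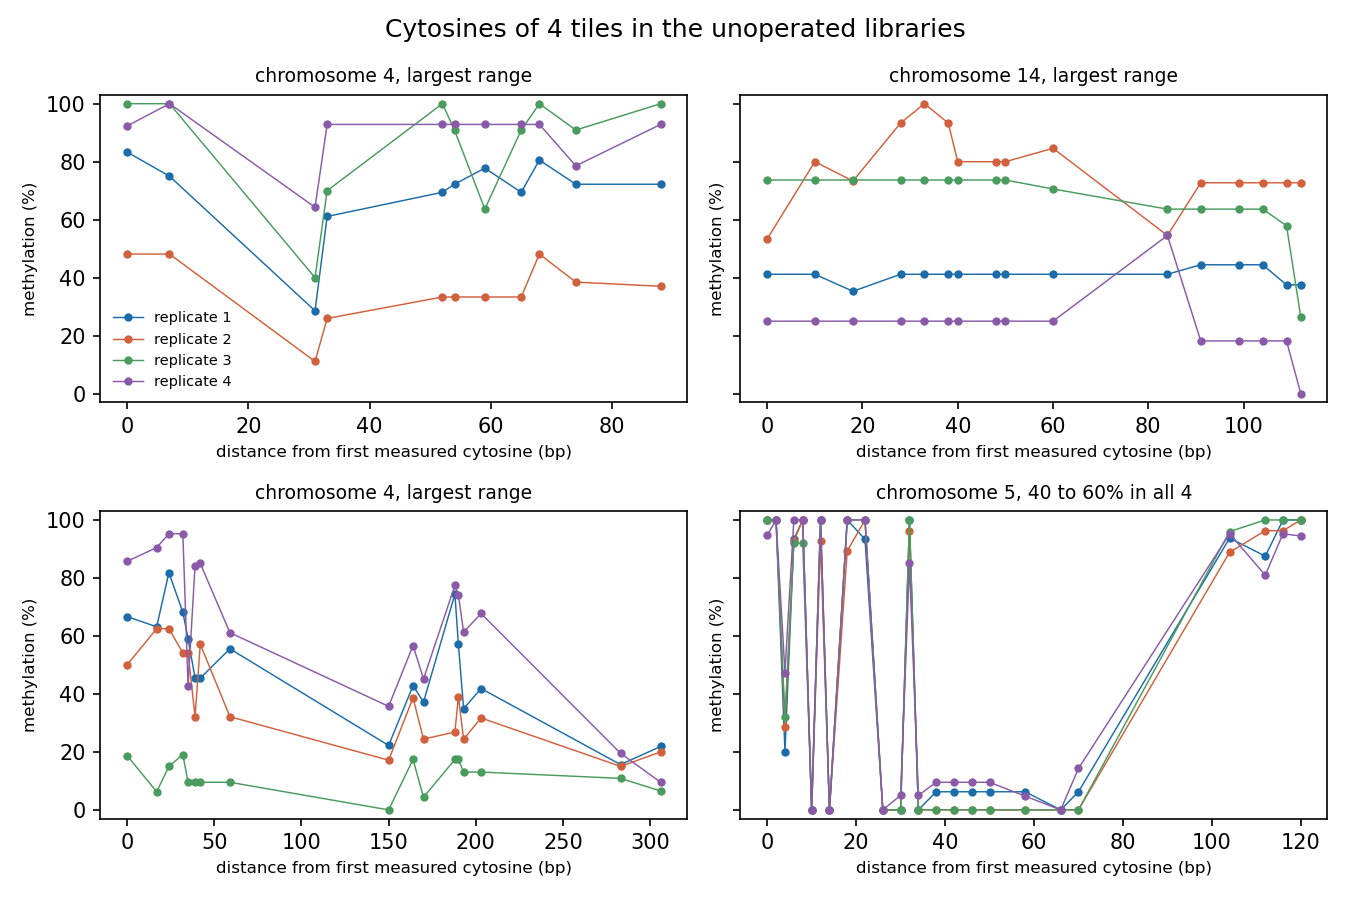
Methylation of single cytosines (vertical axis, %) against the distance from the first measured cytosine (horizontal axis, bp) in the 3 tiles with the widest range between libraries and in the chromosome 5 tile whose cytosines lie near 0% or near 100%. Lines join the cytosines of a replicate. In the first 3 panels the libraries lie apart over most of the tile, and in the last they follow each other.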

How the data were processed

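RRBS was analysed for 4 NSC libraries among 14 samples of the series. Per the labels' protocols, MspI-digested DNA was depleted of fragments longer than 300 bp and then bisulfite-converted. Trim Galore, FastQC, Bismark 0.23.0, methylKit 1.14.2 and the assembly mRatBN7.2 are named, per the submitters' processing notes, without roles or order. The deposited counts are methylated reads and all reads per cytosine, without normalization, and cytosines under 5 reads are not listed. The deposited percent is their ratio, truncated, which was checked, and was recomputed here from the counts.

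Members and lists were chosen with earlier results of these data known. A cytosine was used if each of the 4 libraries had 10 or more reads there, and a 1000 bp tile (counted from position 1) if it held 3 or more such cytosines. Each cytosine counted once. Replicates were numbered in accession order. The only test was an exact permutation test. Named tiles were the 3 with the most cytosines below 10%, at 40 to 60% and at 90% or more in all 4 libraries, the 3 with the largest range among tiles of at least 10 cytosines, and the 3 longest runs below 10%, with ties broken by position. The lowest and highest chromosomes were named too. Named windows were chosen after their values were seen. Promoters and gene lists had been planned and were not run, as gene annotation of this assembly was not used here. The functions were tested on simulated data. The software was scipy 1.17.1, numpy 2.4.6, matplotlib 3.10.9 and pandas 2.3.3 under Python 3.11.15. Alternatives covered a read minimum of 5 or of 20, a limit on high coverage, thinning to 10 reads, summed strands, other tiles and densities, other correlations and leaving out each library.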

Additional observations from a re-analysis of the deposited data

Results flagged for a closer look

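Of 83 quantities given per library, 5 had a library far from the other 3. Chance sets apart about 1 in 20 such groups of 4. Many of the quantities summarize the same cytosines, so several flags for a library are not separate signs. Replicate 1, the deepest library, was the one set apart in 4 of them. It had 26.7% of cytosines at 90% or more, against 28.5% to 28.8% in the others, and 5.37% at 10 to below 30%, against 5.44% to 5.45%. Its mean was 70.2% in tiles with 10 to 19 listed cytosines, against 70.5% to 70.6%, and 53.0% at cytosines with 20 to below 30 reads, against 53.3% to 53.4%. In tiles with 80 to below 120 listed cytosines replicate 4, the shallowest library, was highest at 4.23%, against 4.00% to 4.04%.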

How the results depend on the processing

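Sparse tiles stayed above dense tiles in all 13 alternatives, by 68.2 to 71.8 points, and with 3 or 4 libraries no exact permutation test could pass 0.05. Mean methylation was 53.4% with at least 5 reads, 58.3% with at least 20, 52.6% with strands summed, 57.2% with reads pooled, 55.4% over each library's own cytosines and 58.3% with each tile counted once. The share below 10% was 29.8% with 5 reads, 23.7% with 20, 30.1% with strands summed and 27.7% after thinning; the share at 90% or more was 29.7% with 5 reads, 26.8% with strands summed and 34.6% after thinning. The r of neighbours at 11 to 25 bp and at 500 to 1000 bp was 0.92 and 0.71 with 5 reads, 0.95 and 0.77 with 20, 0.92 and 0.72 after thinning, 0.90 and 0.69 as Spearman's rho, 0.89 and 0.48 with density means subtracted, and 0.90 and 0.57 with the next neighbour only, an alternative added after seeing the data. With strands summed it was 0.74 at 500 to 1000 bp, and with partners from different libraries 0.93 at 11 to 25 bp. Within density classes it was 0.70 and 0.11 (3 to 9), 0.82 and 0.30 (10 to 19), 0.92 and 0.55 (20 to 39), 0.95 and 0.78 (40 to 79) and 0.88 and 0.27 (80 and over). The mean r of library pairs was 0.87 with 5 reads, 0.94 with 20, 0.89 after thinning, 0.87 as Spearman's rho, 0.39 for cytosines at 20 to 80% and 0.96 for tiles. The median SD of tiles was 5.999 points with 5 reads, 3.32 with 20, 5.43 after thinning and 4.00 to 4.16 with any library left out, where SDs rest on 3 values. Leaving out a library gave 53.8% to 54.0% for the mean, and shares, neighbour r and library r moved by less than their SD. An average over 4 libraries or 6 pairs cannot move by its SD when a library is dropped. That outcome was therefore fixed in advance and says nothing about robustness. Named tiles moved by less than their SD in 96 of 104 alternatives, but many of these could not have come out otherwise. Leaving out a library cannot move a tile's mean by its SD, and the coverage limit left every named tile unchanged. With at least 20 reads, named tiles without such cytosines dropped out. Of the rest, more moved beyond their SD than did not. Beyond fewer or other cytosines and reads, the cause of these shifts was not tested. A density from measured cytosines alone was not run, since no tile had more than 64. Strands were summed by pairing adjacent positions, which is uncertain in 59021 runs of 3 or more. No pairing between groups was possible because a single group was described. The density test compared sparse with dense tiles within each library.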
